A study of Mus musculus with 20 samples.

Results

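Reactive gliosis and injury genes are transcripts that astrocytes, vessel cells and meningeal cells are known to raise when brain tissue is damaged or inflamed. The 8 genes described here are Vim, Gfap, Nes, Cd44, Steap4, Timp1, Serpina3n and S100a6. They were taken by name, as every non-control probe that carries 1 of these symbols, which gave 13 probes of 39429 on the array and 8 of 30210 gene names. The tissue was a 1 mm slice of the frontal pole, labelled prefrontal cortex, from male Swiss-Webster mice that were 12 weeks old when they were moved to single cages and then habituated for 22 days. Stressed mice were placed as intruders with group-housed males and were killed the day after a single encounter (acute), after 8 days or after 13 days of encounters, or after 13 days of encounters and 5 days of rest (recovery). Control mice were singly housed brothers of the stressed mice, kept undisturbed in an adjacent room, with a separate control group for each time point. Each of the 12 pairs of pools held RNA of 3 stressed and 3 control mice, with 3 pairs per time point, so room and stress cannot be told apart and the spread of single mice is not seen.

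Reactive astrocytes enlarge and rebuild their skeleton of intermediate filaments, and Gfap, Vim and Nes encode proteins of those filaments. Nes is best known from neural progenitors, and Vim is also made by endothelial, mural and meningeal cells. Cd44 is a cell surface receptor for hyaluronan, Timp1 is a secreted inhibitor of matrix metalloproteinases, Serpina3n is a secreted serine protease inhibitor, Steap4 is a metalloreductase induced by inflammation, and S100a6 is a small calcium-binding protein. In bulk tissue, fewer cells of a type and less RNA per cell cannot be told apart.

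The stress and control pools of a pair were labelled with different dyes and hybridised together on 1 array. The study swapped the dyes of every pair on a further array. The swaps of pools 2 and 3 of each time point were analysed here and those of pool 1 were not, so that pool 1 rests on 1 array, with stress in Cy5. The 20 arrays used lay on 5 slides with 2 scan dates. Pool 1 of every time point lay on slide 1, pool 2 on slides 2 and 3, and pool 3 on slides 4 and 5. The slides of pool 3 had a different scan date from the others. On each array 70.5% to 74.4% of probes exceeded the background clearly by the scanner's own mark (called well above background here), and no spot was saturated. With both ratios written as stress over control, a pool's original and its swap correlated at -0.39 to -0.10 over probes well above background throughout. Among the 100 probes with the strongest ratios in the other 2 pools of the time point, the same correlation was 0.32 to 0.79. Of these 100, 44 to 73 had the sign of the other 2 pools on the original, and 42 to 73 on the swap. The hemoglobin gene Hbb-b1 was higher in stress on both the original (1.96 and 1.53 on the log2 scale) and the swap (1.85 and 1.38) at 13 days. Of 8 red cell genes, 8 shared a sign between original and swap in 13-day pool 3, and 4 in acute pool 3. An additive dye effect cancels in the means of pools 2 and 3 but not in pool 1.

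The probes set what could be seen of each gene. Vim, Nes, Timp1, Serpina3n, S100a6, a pair of the Gfap probes and 1 Cd44 probe were well above background in both channels on all 20 arrays. Steap4 did not pass that mark on any of the 20 arrays with either dye, so its ratios have no order and none is described. Cd44 was measured at several places along the gene, and 3 of the 4 probes are shown because they differed in the number of arrays on which they were above background. The 3 Cd44 probes below lie on the minus strand of chromosome 2 (mm9), at 102677971 to 102678030, 102672645 to 102672704 and 102654278 to 102654337. In at least 1 channel the first was well above background on 1 array, the second on 2 and the third on 17 of 20, and in both channels on 0, 0 and 3 arrays. The S100a6 probe, at chromosome 3 90418160 to 90418219 on the plus strand, is shown because its gene had the lowest p of the members after acute stress.
Cd44 A_55_P2166488: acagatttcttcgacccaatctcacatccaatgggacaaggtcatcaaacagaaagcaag
Cd44 A_55_P2166486: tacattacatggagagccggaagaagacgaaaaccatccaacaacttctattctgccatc
Cd44 A_55_P2166501: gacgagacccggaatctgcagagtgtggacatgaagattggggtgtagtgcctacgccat
S100a6 A_51_P281089: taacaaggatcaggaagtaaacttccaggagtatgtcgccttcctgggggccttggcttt

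The response of several of these genes to cytokines is known to run through STAT3, so the 300 bases around each annotated start (250 before and 50 after, RefSeq, GRCm38.p6) were searched on both strands for TTCNNNGAA. All 8 genes matched a promoter in that table, and 2 of 8 held the letters, against 8.30% of 32851 promoters. The matches lay in Gfap, from 2 bases before the start to beyond it, and in Steap4, beginning 116 bases before the start. They are printed with 30 bases on either side and the match in capitals, because they are the only matches among the members. The AP-1 letters TGANTCA and the NF-kB letters GGGANTTTCC were in 0 of 8, against 7.81% and 0.411% of promoters.
Gfap (chr11:102897164-102897232, minus strand): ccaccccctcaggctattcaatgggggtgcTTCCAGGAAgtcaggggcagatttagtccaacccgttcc
Steap4 (chr5:7960326-7960394, plus strand): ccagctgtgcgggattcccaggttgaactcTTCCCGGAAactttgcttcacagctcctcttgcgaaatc

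None of the 13 probes passed the test at any time point. A probe was called when limma's Benjamini-Hochberg adjusted p over 39429 probes was under 0.05 and the log2 ratio of stress over control was over 0.5 in size. The count was 0 of 13 after acute stress, where 0.00254% of all probes were called, 0 of 13 after 8 days (0% of all probes), 0 of 13 after 13 days (0.0228%) and 0 of 13 in recovery (0%). At an unadjusted p under 0.05, 3 member probes passed after acute stress (4.94% of all probes did), 1 of them the dim Cd44 probe A_55_P2166501. The count was 1 after 8 days (2.39% of all probes), 1 after 13 days (7.18%) and 1 in recovery (3.56%). Over the 8 genes, each by its brightest probe, the median log2 ratio was -0.040 in the acute pools and 0.055 at 8 days. It was 0.037 at 13 days and -0.0068 in recovery. The SD of the medians of the 3 pools was 0.018, 0.15, 0.11 and 0.038 at these times. Without Steap4 the medians over 7 genes were -0.033, 0.044, 0.070 and -0.0028. Of these 7 genes 6 were below 0 after acute stress and 7 were above 0 after 8 days. The 8-day direction rested on pool 1, where the median of the 7 genes was 0.25, against 0.021 and 0.050 in pools 2 and 3. In the mean of pools 2 and 3, 3 of 7 genes were above 0 at 8 days (Vim, Timp1 and S100a6), and the median was -0.0090 at 8 days and -0.0077 at 13 days.

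**Figure D1:**
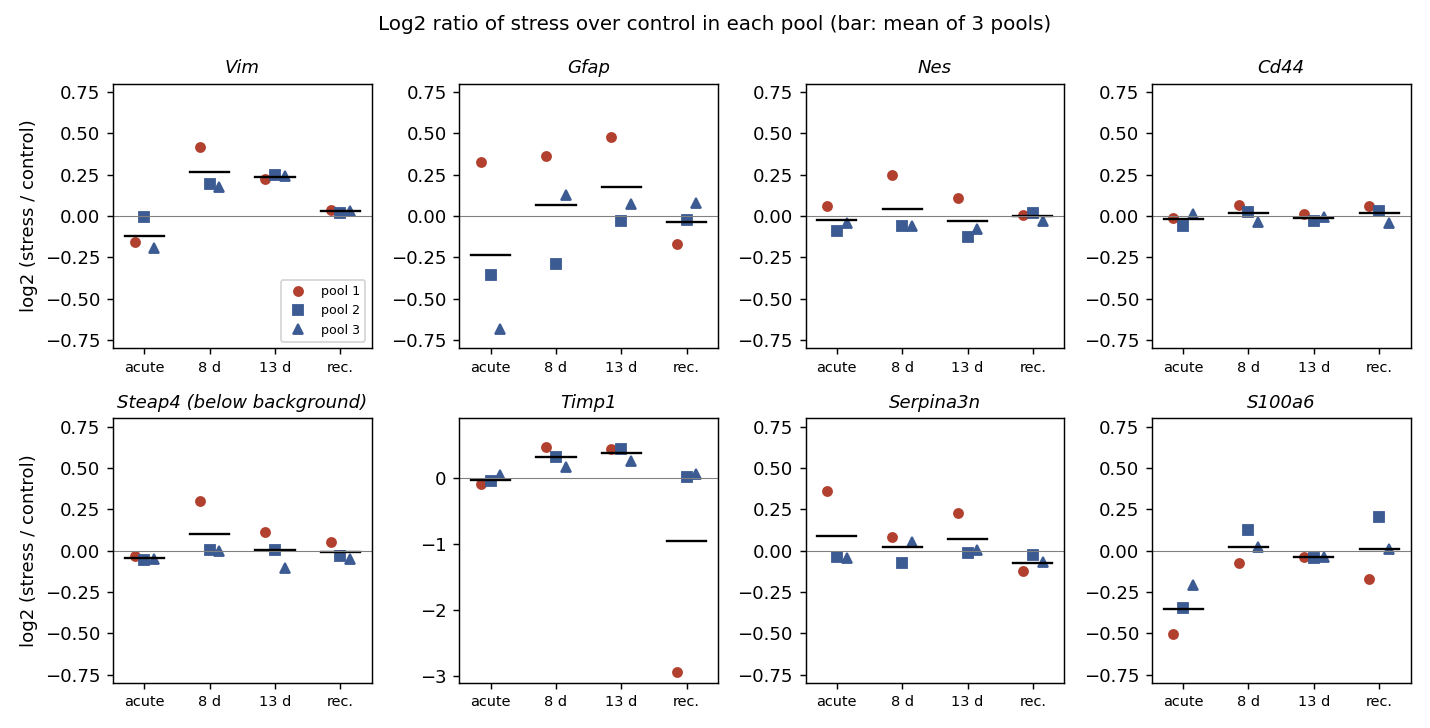
Vertical axes give the log2 of stress over control for the brightest probe of each gene at the 4 time points, with a point per pool and a bar for the mean of 3 pools; the Timp1 axis is longer than the others, and Steap4 was below background on all arrays. Pool 1 stands above pools 2 and 3 for Gfap at 3 time points, S100a6 is below 0 in all 3 acute pools, and Timp1 in recovery pool 1 lies at -2.93.

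Vim, which encodes the filament protein vimentin, was higher in the stress pool of every pair after 8 and 13 days of encounters, which 7.50% and 12.2% of all probes also were. Normalized log2 signals at 8 days were 11.02, 11.05 and 11.16 in the stress pools, against 10.60, 10.86 and 10.99 in the control pools. The stress pools did not overlap the control pools, as was the case for stress above control in 0.938% of all probes at 8 days. At 13 days the signals were 11.003, 11.078 and 11.206 in stress pools, against 10.777, 10.832 and 10.963 in control pools. These groups did not overlap either, a pattern that 2.94% of all probes had at 13 days. The log2 ratio was 0.26 at 8 days (SE 0.049, a fold of 1.20, limma adjusted p = 1.00) and 0.24 at 13 days (fold 1.18, adjusted p = 0.230).

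The pool ratios of Vim at 13 days were 0.23, 0.25 and 0.24, but the single arrays behind them spread far wider. Pool 2 was at -0.031 on the original array and 0.52 on the swap, and pool 3 at 0.031 and 0.45. In 8 swapped pools the gap between original and swap had a median of 0.35, and the sign was shared in 2. With a dye coefficient fitted over the 20 arrays, which came to -0.098 for this probe, the 13-day ratio was 0.26 (adjusted p = 0.168). That fit counted the original and the swap of a pool as nearly separate samples (estimated correlation 0.044). The closeness of the 3 pool values is thus not a measure of how well each was determined.

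After acute stress the Vim ratios were -0.16, -0.0042 and -0.19, with stress levels of 10.83, 10.80 and 11.06, against control levels of 10.99, 10.80 and 11.26. In recovery they were 0.034, 0.020 and 0.028, above 0 in 3 of 3 pools as for 8.37% of all probes. The acute mean was -0.12 (adjusted p = 0.976), and 0.033 with arrays centred on the median in place of loess. Both acute swaps were above 0, at 0.16 in pool 2 and 0.028 in pool 3, against -0.17 and -0.41 on the original arrays. Tested directly, Vim differed by 0.38 between 8 days and acute (SE 0.070, adjusted p = 0.910), by 0.36 between 13 days and acute (adjusted p = 0.194) and by -0.21 between recovery and 13 days (adjusted p = 0.995). Of the 13 probes 0 were called in any of these contrasts, in which 0%, 0.00254% and 0% of all probes were called.

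Gfap, the standard marker of reactive astrocytes, varied widely between the pools of a time point. The pooled SD of its brightest probe, A_52_P52303, was 0.34 on the log2 scale, higher than that of 99.1% of probes. After acute stress its signals were 9.97, 9.60 and 9.59 in stress pools, against 9.64, 9.96 and 10.28 in control pools. Stress was thus higher in pool 1 and lower in pools 2 and 3, with ratios of 0.33, -0.36 and -0.68. The ratios were 0.36, -0.29 and 0.12 at 8 days, 0.48, -0.028 and 0.072 at 13 days, and -0.17, -0.024 and 0.080 in recovery.

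The acute decrease in pool 3 was the same on both arrays (-0.69 on the original and -0.68 on the swap), and pool 2 was at -0.25 and -0.47. The acute ratio was -0.24 with all 3 pools (adjusted p = 0.976). It was -0.52 without acute pool 1, -0.18 without pool 2 and -0.016 without pool 3. At 13 days, pool 2 was at 0.34 on the original array and -0.40 on the swap, so its mean near 0 joins opposite readings. The second probe, A_55_P2157250, listed for another transcript variant, had ratios of 0.38, -0.25 and -0.36 after acute stress and 0.86, -0.16 and 0.062 at 13 days. Its 13-day mean was 0.25, and -0.051 without pool 1. The third probe, A_55_P2157245, ranged from -0.096 to 0.28 over the 12 pools.

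**Figure D2:**
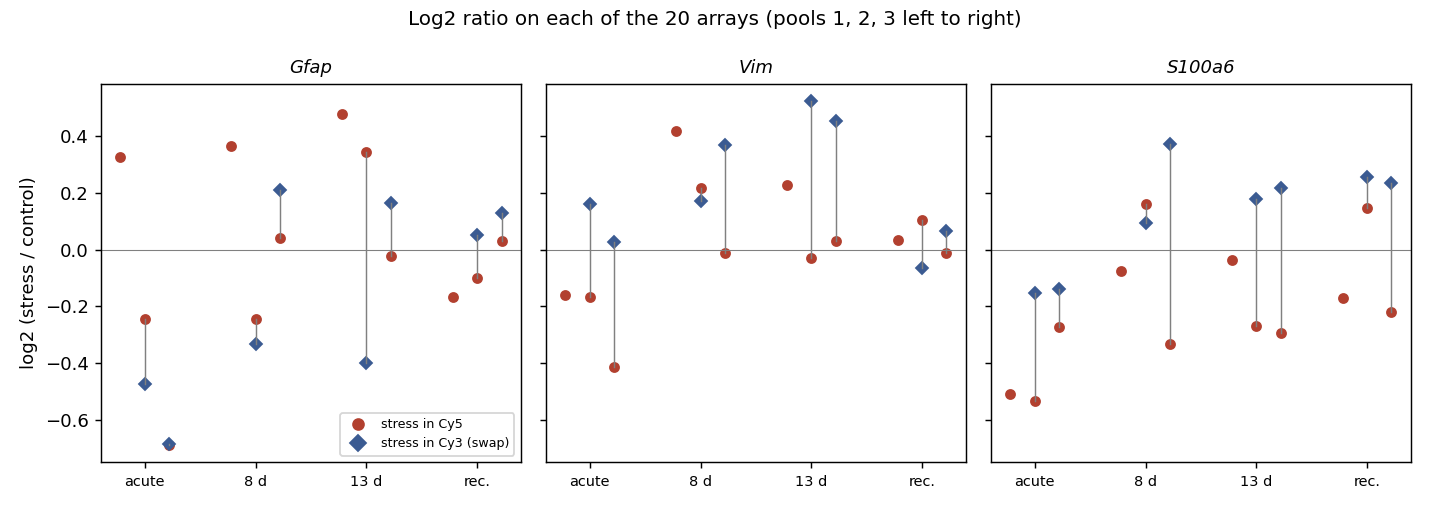
Vertical axes give the log2 of stress over control on each of the 20 arrays for Gfap, Vim and S100a6, with circles for stress in Cy5 and diamonds for the dye swap, joined within a pool; at each time point pools 1, 2 and 3 run left to right. Gfap in acute pool 3 agrees on both arrays near -0.68, while Vim at 13 days lies at -0.031 and 0.52 in pool 2.

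Nes, the progenitor filament gene, stayed near 0. Its ratios over the 12 pools ran from -0.13 to 0.25, and the highest was 8-day pool 1. At 8 days the stress levels were 9.140, 8.936 and 9.067, against control levels of 8.890, 8.995 and 9.126. Progenitors of the rostral migratory stream, which the slice could hold beside the olfactory bulb, gave a marker list of 11 genes with medians from -0.012 to 0.021 over the 4 time points and 0 called. At 8 days Dlx2 was at -0.042 and Cd24a at 0.068.

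S100a6 was lower in stress in all 3 pairs after acute stress. Its signals were 11.42, 11.49 and 11.49 in stress pools, against 11.93, 11.83 and 11.69 in control pools. The groups did not overlap, as for 2.87% of all probes with stress below control at this time. The ratio was -0.35 (SE 0.067, fold 0.783, adjusted p = 0.221), and it did not pass. Of the 5 acute arrays all were below 0, at -0.51 in pool 1, -0.53 and -0.15 in pool 2, and -0.27 and -0.14 in pool 3.

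At the later times the pool means of S100a6 showed no such shift. The ratios were -0.074, 0.13 and 0.019 at 8 days, -0.038, -0.046 and -0.037 at 13 days, and -0.17, 0.20 and 0.0091 in recovery. Several of these means join opposite readings. At 13 days pool 2 was at -0.27 on the original array and 0.18 on the swap, and pool 3 at -0.29 and 0.22. Pool 3 at 8 days was at -0.33 and 0.37. In 8 swapped pools the gap had a median of 0.41, and the sign was shared in 4. The difference between 8 days and acute was 0.38 (SE 0.094, adjusted p = 1.00). Its dye coefficient was -0.17, and with it fitted the acute ratio was -0.29 (adjusted p = 0.0699). With the slide as a block the acute ratio was -0.32 at an adjusted p of 0.0368, still under the size needed for a call. Both of these fits counted the original and the swap of a pool as nearly separate samples. The estimated correlation was 0.044 in the dye fit and 0.050 in the slide fit. Their adjusted p values may thus be too low, and the fit to pool means gave 0.221.

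Markers of meningeal fibroblasts, which also express S100a6, had a median of -0.19 over 14 genes after acute stress. Of these, 10 were lower in all 3 pools, against 14.4% of all probes, and 0 were called. Aebp1 was at -0.34 (adjusted p = 0.195) and the collagen gene Col1a2 at -0.53 (adjusted p = 0.238). By pool the list's medians were -0.072, -0.23 and -0.26, and Col1a2 was at -0.82, -0.27 and -0.49. S100a6 was at -0.51, -0.34 and -0.21. Oligodendrocyte markers had a median of 0.23, and 8 of 10 were higher in all 3 pools, against 13.9% of all probes. The myelin genes Mobp and Mag were at 0.49 (adjusted p = 0.0103, under the size needed for a call) and 0.34 (adjusted p = 0.261). Their part in the S100a6 result was not tested.

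Timp1, the metalloproteinase inhibitor, was higher in the stress pool of every pair at 8 and 13 days, as were 7.50% and 12.2% of all probes. At 8 days its signals were 8.27, 8.51 and 7.93 in stress pools, against 7.80, 8.20 and 7.75 in control pools. The groups overlapped, because control pool 2 was above stress pool 3. At 13 days they were 8.14, 8.16 and 8.04 in stress pools, against 7.70, 7.72 and 7.78 in control pools, with no overlap. Stress lay above control without overlap in 2.94% of all probes at that time. The ratios were 0.32 at 8 days and 0.38 at 13 days (SE 0.39 and adjusted p = 0.923 at 13 days). All 10 arrays of these times were above 0, the lowest at 0.028 and 0.034.

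The wide error of Timp1 came from 1 control pool in recovery. Its signals in recovery were 7.69, 7.87 and 7.80 in stress pools, against 10.62, 7.86 and 7.74 in control pools. Control levels in the other 11 pools lay between 7.70 and 8.20, so recovery pool 1 stood 2.41 above the highest of them, and its ratio of -2.93 was the lowest of 39416 probes in that pool. In the control channel the spot had a mean intensity of 666 and a median over its pixels of 628, against green means of 63.0 to 171 on the other 19 arrays. The mean and the median over pixels were close, and the dye swap of this pair was not analysed here. Pool 1, with 1 array at each time point, held 24 probes below -2 after acute stress, 7 at 8 days and 4 at 13 days. In recovery pool 1, 7 probes were below -2, against 0 in recovery pools 2 and 3. Among them were Aldh16a1 at -2.32, Zfp784 at -2.31 and Vps52 at -2.27. Ttr, the transthyretin gene of the choroid plexus, was at -2.33 in the same pool and Ccdc153 at -0.26. The median of the 10 ependyma and choroid plexus markers there was -0.044. The part of choroid plexus, or of this array, in the Timp1 value was not tested.

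Without recovery pool 1 the Timp1 ratio in recovery was 0.033, against -0.95 with it. The 13-day ratio stayed at 0.38, and its SE became 0.055 with an adjusted p of 0.0538. The size of the ratio at these low signals also depended on the background correction. It was 0.49 at 8 days and 0.64 at 13 days with a normexp offset of 0, and 0.67 and 0.55 with no background correction. From the scanner's own log ratio, which differs in both background and dye normalization, it was 1.14 and 1.05.

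**Figure D3:**
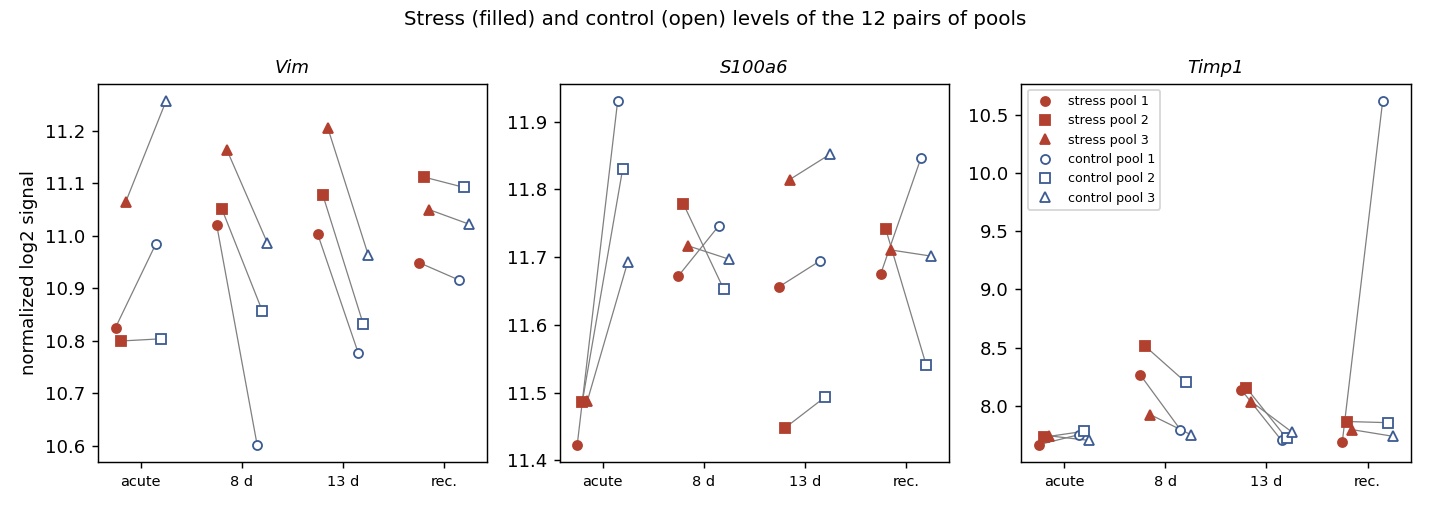
Normalized log2 signal (vertical axis) of Vim, S100a6 and Timp1 in the stress pool (filled) and the control pool (open) of each of the 12 pairs, joined by lines. Vim stress pools lie above control pools at 8 and 13 days, S100a6 stress pools lie below control pools after acute stress, and the recovery control pool 1 of Timp1 stands alone at 10.62.

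Serpina3n, the secreted protease inhibitor, is among the strongest responders to brain inflammation, and here it stayed close to the control level. Its signals at 13 days were 9.37, 9.14 and 9.29 in stress pools, against 9.15, 9.15 and 9.29 in control pools. The ratios were 0.36, -0.039 and -0.047 after acute stress and 0.22, -0.017 and 0.0016 at 13 days, so that pool 1 alone was clearly above 0. At 13 days pool 2 joined 0.32 on the original array and -0.35 on the swap, as for Gfap. In recovery all 3 pools were below 0, between -0.12 and -0.029, as for 12.6% of all probes.

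Cd44, the hyaluronan receptor, had the smallest pooled SD among the brightest probes of the 8 genes. Its brightest probe, A_55_P2064043, ran from -0.059 to 0.068 over the 12 pools, and its pooled SD of 0.043 ranked at 3.84% of all probes, counted from the lowest. The third probe printed above was below 0 in all 3 acute pools (-0.17, -0.062 and -0.035) and above 0 in all 3 recovery pools (0.013, 0.021 and 0.0013). Both channels of that probe were well above background on 0 of the 5 acute and 0 of the 5 recovery arrays, so these signs rest on signals at or near background.

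Other reactive astrocyte genes gave no call either. Of 39 such genes on the array 0 were called at any time, with medians of -0.048, 0.018, 0.037 and 0.0011 from acute to recovery, against medians of all probes between -0.0015 and 0.0011. After acute stress 12 of 39 were lower in all 3 pools, against 14.4% of all probes, and 3 were higher, against 13.9%. An unadjusted p under 0.05 was found for 8 of 39, and for 4.94% of all probes. At 13 days 12 of 39 were higher in all 3 pools, against 12.2% of all probes, and 6 were lower, against 14.4%. Here 9 of 39 had an unadjusted p under 0.05, in either direction, against 7.18% of all probes. Hspb1, a small heat shock protein gene, was at 0.21 after acute stress and 0.23 at 8 days, and Sphk1, a sphingosine kinase gene, was at -0.18 after acute stress. Aspg was at -0.15 at 8 days and -0.22 at 13 days, and Cd14, a coreceptor for lipopolysaccharide, was at 0.21 at 13 days (adjusted p = 0.483). Lcn2, which encodes lipocalin 2, had ratios of -0.30, 0.095, 0.36 and 0.040 (adjusted p = 0.737 at 13 days). Socs3, a feedback inhibitor of STAT3 signalling, was at 0.14 at 13 days (adjusted p = 0.713), and Stat3 itself was at -0.049. H2-D1 and H2-T23, genes of antigen presentation, were at -0.38 and -0.31 in recovery (adjusted p = 0.999 for both).

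Markers of resting astrocytes showed that the tissue held these cells, with 15 of 15 well above background on all arrays. Their median was -0.13 at 13 days, and 8 of 15 were lower in all 3 pools, against 14.4% of all probes, with 0 called. The water channel Aqp4 was at -0.29 (adjusted p = 0.433) and Mlc1 at -0.19 (adjusted p = 0.196). For cells that also make Vim and Timp1, endothelial markers had medians of 0.070 at 8 days and 0.058 at 13 days, mural cell markers 0.073 and 0.0089, and meningeal fibroblast markers 0.081 and 0.0029. The collagen gene Col3a1, of the meningeal list, was at 0.24 at 8 days and at 0.27, 0.25 and 0.24 in the 13-day pools (mean 0.25, adjusted p = 0.433). In the same list Slc6a13 was at 0.16 at 8 days and Slc13a4 at -0.12 at 13 days. At 13 days 2 of its 14 genes were higher and 3 lower in all 3 pools, against 12.2% and 14.4% of all probes. Of the endothelial list, Ly6a was at 0.26 and Abcb1a at 0.11 at 8 days, and Cldn5 was at -0.22 and Tie1 at 0.14 at 13 days. Of the mural list, Rgs5 was at 0.18 and Myh11 at 0.14 at 8 days, and Cspg4 was at -0.15 and Rgs5 at 0.063 at 13 days. Red cell genes were the only list with a call, with 6 of 8 called at 13 days and a median of 1.37. Hbb-b1 was at 1.61, Hbb-b2 at 1.46 and Beta-s at 1.43 (adjusted p = 0.00910, 0.00910 and 0.00245), and the probes of these hemoglobin genes may share transcripts. The part of these cells in the Vim and Timp1 ratios was not tested.

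**Figure D4:**
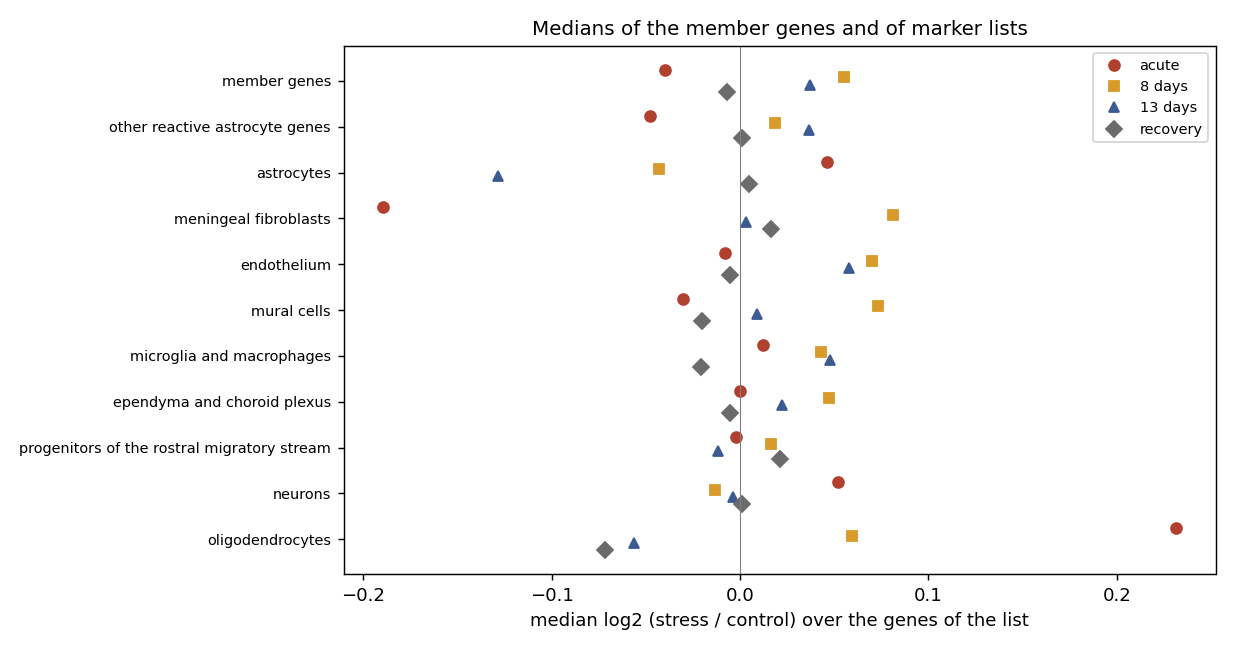
Median log2 ratio of stress over control (horizontal axis) over the 8 member genes and over marker lists of brain cell types (rows), with a symbol per time point; red cell genes, with a median of 1.37 at 13 days, are left out. The members lie between -0.040 and 0.055, and the widest medians are meningeal fibroblasts (-0.19) and oligodendrocytes (0.23) after acute stress.

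The genes whose ratios followed Gfap and Vim most closely were named from 18567 genes well above background, over the 12 pools. For Gfap they were Id3 (r = 0.94), Rps6ka4 (r = 0.94) and Necab2 (r = 0.93). For Vim they were Atf7ip (r = 0.95), Pcolce (r = 0.90) and Ahnak (r = 0.90). Pools of the same number share slides, and no test was made of these values. Gfap and Vim had r = 0.50 with each other, and Gfap and Serpina3n r = 0.70.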

How the data were processed

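Frontal cortex RNA of 12 pairs of pools was measured on 20 dual-colour Agilent arrays. The spot intensity values and local backgrounds are as deposited, read by the authors with Agilent Feature Extraction and not normalized. The deposited log10 ratio of red over green was background-subtracted and dye-normalized by that software. The authors also gave a table of log2 ratios of stress over control, whose sign is turned on swaps. Their methods name normexp background correction, loess within arrays and Aquantile between arrays, in limma, and the normexp offset is not given in the sources used here. Probe positions are those of the array design (mm9).

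The files were read with data.table (version 1.17.8) and jsonlite (version 2.0.0) and analysed with limma (version 3.58.1) and statmod (version 1.5.0) under R version 4.3.3. Mean intensities were corrected by normexp (offset 50), normalized by loess (control and outlier spots at weight 0) and Aquantile, outlier spots were set to missing, and 43020 spots were averaged to 39429 probes. The ratio of a swap had its sign changed and was averaged with that of the other array. limma fitted 1 coefficient per time point to the 12 pools, with moderated variances (prior df 4.86). The pools come from separate mice, and the number of arrays limits the precision. The SE is that of this fit.

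All member probes were named. The rule for the lists took called genes, at most 4 per time point, or else the 2 with the largest moderated t among probes well above background on all arrays. It was applied to the lists and time points that the text sets beside a member, and not every gene it takes is printed. Lcn2, Socs3 and Stat3 were chosen after their values were seen. Members and lists were chosen with earlier results of these data known. The alternatives tried are given in the closing section.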

Additional observations from a re-analysis of the deposited data

Results flagged for a closer look

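Vim was lower in stress in 3 of 3 acute pools and higher in 3 of 3 pools at each later time. The acute direction was not shared by both dyes, since the swaps of pools 2 and 3 were at 0.16 and 0.028, and the acute mean of -0.12 was 0.033 with arrays centred on the median. The difference was 0.38 between 8 days and acute and 0.36 between 13 days and acute, and neither passed the test (limma adjusted p = 0.910 and 0.194). Between recovery and acute it was 0.15, which was not tested. The Cd44 probe A_55_P2166501 was lower in 3 of 3 acute pools and higher in 3 of 3 recovery pools, a difference of 0.10 that was not tested, from a probe with both channels well above background on 3 of 20 arrays, none of them acute or recovery arrays. Groups of 3 pools are too small for a check of single outlying pools.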

How the results depend on the processing

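The count of called member probes stayed at 0 of 13 at every time point and in every contrast under 26 alternatives. Of these, 25 were planned and 1 (pools with dye swaps only) was chosen after seeing the data. In the main fit the count was also 0 at each time point with no minimum log2 ratio. With the slide as a block, S100a6 after acute stress would pass without that minimum (limma adjusted p = 0.0368, against 0.221 in the main fit). The slide fit counted the original and the swap of a pool as nearly separate samples, so its p may be too low. Loess alone gave the same ratios by construction, since Aquantile changes only the mean signals. The acute median of -0.040 was -0.10 with a normexp offset of 0, -0.074 with no background correction, -0.10 in the authors' value table and -0.060 with pools with dye swaps only, and leaving out 1 pool gave -0.060 to -0.033. Without pool 1 the 8-day median of 0.055 was -0.0052 and the 13-day median of 0.037 was -0.014, both on the other side of 0. Leaving out 1 pool gave -0.0052 to 0.12 at 8 days, -0.014 to 0.081 at 13 days and -0.029 to 0.0097 in recovery. The recovery median of -0.0068 was 0.036 with arrays centred on the median, 0.021 with no background correction and 0.0048 from the scanner's log ratio. The cause was not tested. Of 1340 member values under alternatives, 89 moved by more than 1 SD between pools, 107 changed sign and 0 passed the call thresholds. With the replicate block the smallest member adjusted p was 0.0555 (S100a6, acute) and Vim was at 0.110 at 13 days, so no call changed. Same-numbered pools deviated with correlations from -0.12 to 0.51. They share slides and a scan date, and the main fit did not take the numbers as pairs. Leaving out 13-day pool 1 brought the adjusted p of Vim at 13 days to 1.00, and leaving out acute pool 1 brought that of S100a6 after acute stress to 1.00, with a ratio of -0.27. Low signals limit Timp1, Steap4 and the dim Cd44 probes.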
